A study of Homo sapiens with 6 samples.

Results

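Described here are 28 genes that make cholesterol and fatty acids or control that synthesis: 16 enzymes of the sterol branch, 4 regulators with 1 sterol carrier, and 7 genes of the fatty acid branch. They come from a list and were matched by Entrez identifier to probe sets annotated to exactly 1 gene, which held for 25 of the 28, among 19775 genes in all. FDFT1, CYP51A1 and FADS1 had no such probe set and were not analysed here. Each gene was read through its brightest probe set over the 6 arrays, and its other probe sets, 58 with the brightest ones, served as a check. Expression was measured on Affymetrix U133 Plus 2.0 arrays in JJN3, an established human line of multiple myeloma, a cancer of antibody-secreting plasma cells. After viral transduction, the cells of 3 arrays expressed a short hairpin RNA (shRNA) that targets CKS1B, which binds cyclin-dependent kinases, and those of 3 arrays a scrambled shRNA. Titles give each array a letter, A, B or C, and that of scrambled array B has an added word, "poly", with no explanation. All arrays are of 1 cell line, the hairpin sequence and the number of hairpins were not given in the sources used here, and nothing states that arrays are separate transductions. The p-values thus reflect the spread among the arrays alone, perhaps a technical one, and the small number of arrays sets how precise a value can be.

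Cells build cholesterol from acetyl-CoA through mevalonate and the isoprenoid units to squalene, which is closed into a ring and trimmed to cholesterol. Fatty acids are built from the same acetyl-CoA by carboxylation, repeated elongation and desaturation. Both branches are switched on by the SREBP transcription factors, which SCAP escorts from the endoplasmic reticulum to the Golgi for cleavage when sterols are low, and which INSIG proteins hold back when sterols are high. Plasma cells need these lipids for the wide endoplasmic reticulum in which they make antibody.

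Each level is a linear MAS5 value, with means ± SD over 3 arrays (n = 3). A log2 difference subtracts scrambled from CKS1B shRNA arrays after log2(value + 16), which makes changes of dim genes look smaller, and comes with standard errors (SE) and Benjamini-Hochberg adjusted p-values from limma across all 12663 genes above a filter on low values. CKS1B itself read 481, 269 and 828 with the CKS1B shRNA (A, B, C), against 8266, 8441 and 7294 with the scrambled shRNA (A, B, C). The groups did not overlap, and the exact two-sided permutation p of 0.1 is the lowest possible with 3 and 3 arrays. Array B of the CKS1B shRNA was unlike the rest. Its correlation with them over probe sets was 0.577 to 0.610, against 0.879 to 0.958 among the other 5. Its 3'/5' ratio of the actin control, which rises when RNA is degraded, was 12.4. The next highest ratio was 2.93, on CKS1B shRNA array C, and the remaining arrays lay at 1.05 to 1.66. Results are therefore also given without CKS1B shRNA array B, and these still include array C with its raised ratio. The labelled cell type was checked against its markers: all 7 listed plasma cell markers lay above the filter, with a summed value of 36443 to 45589 with the CKS1B shRNA and 36096 to 41299 with the scrambled shRNA. Single plasma cell markers differed in direction within that sum: POU2AF1 read 15392, 30311 and 17267 with the CKS1B shRNA against 12371, 11471 and 14602, XBP1 read 5779.5, 2361 and 4814 against 7508, 7779 and 5375, and TNFRSF17 was at 408.5 on CKS1B shRNA array B. Of the other markers measured, 2 of 3 B cell (MS4A1, CD22), 3 of 3 T cell, 0 of 3 myeloid, 2 of 3 stromal, 1 of 2 epithelial (EPCAM) and 1 of 4 adipocyte and hepatocyte markers (APOA1) lay above the filter. The summed B cell markers lay between 5125 and 8297 with the CKS1B shRNA and between 5800 and 8188 with the scrambled shRNA. Most of that sum was MS4A1, with a scrambled mean of 6879. APOA1 read 828 on CKS1B shRNA array B and 71.9 to 138 on the other arrays. The summed T cell markers lay between 405 and 3324 with the CKS1B shRNA, highest on array B, and between 300.1 and 1003 with the scrambled shRNA. The summed epithelial markers did not overlap, at 711 to 1331 with the CKS1B shRNA and 1738 to 2201 with the scrambled shRNA, and EPCAM read 1307, 438.0 and 1049 against 2188, 1966.0 and 1542. The part of these markers in the results was not tested. In bulk RNA, fewer cells of a type and less RNA per cell cannot be told apart.

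No gene of cholesterol or fatty acid synthesis passed the test with the CKS1B shRNA, and 6 of the 24 that were tested had all 3 CKS1B shRNA values under the lowest scrambled value. The 6 were ACAT2, LSS and NSDHL of the sterol branch, the sterol carrier STARD4, and ACACA and SCD of the fatty acid branch. They make up 25% of the 24 genes, where 6.41% of all genes tested did not overlap in this direction. None of the 24 (0) lay higher on all 3 arrays, where 4.94% of all genes did. Both counts include CKS1B shRNA array B, on which bright genes tended to read lower and dim genes higher. The list had 0 tested genes among the 25% with the lowest scrambled level, so the shares over all genes are not a matched baseline. Among the 25 genes the largest positive difference was that of INSIG1, which lay above every scrambled value on arrays A and C of the CKS1B shRNA and under them on array B. Adjusted p lay between 0.933 and 0.999 for the 24 genes in limma, and 0 of 24 were under 0.05, as were 0% of all genes tested. CKS1B, the targeted gene, did not pass either (limma adjusted p = 0.246), so not passing does not show that a gene was unchanged. At an unadjusted p under 0.05 there were 2 of the 24, ACACA and SCD, and 2.95% of all genes. Over the 25 genes the median log2 difference was -0.27, with 18 below 0, while over all genes tested it was -0.08, with 55.7% below 0. MVD lay below the filter on low values and was not tested.

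**Figure D1:**
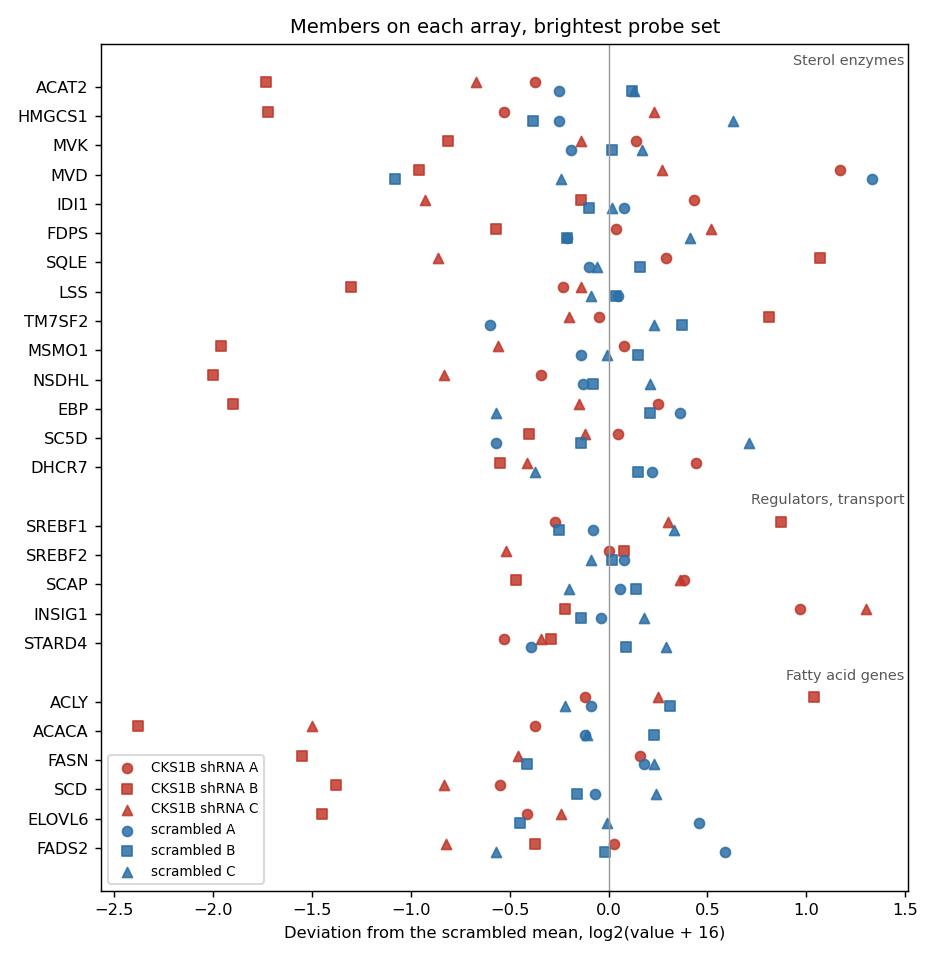
Each row is a gene and each point an array. The x axis gives the deviation on the log2(value + 16) scale, for a CKS1B shRNA array (red) from the mean of the scrambled arrays and for a scrambled array (blue) from the mean of the other scrambled arrays. The red squares, CKS1B shRNA array B, lie far to the left in ACACA (-2.38), NSDHL (-2.00), MSMO1 (-1.96) and EBP (-1.90) and to the right in SQLE (1.07) and ACLY (1.04).

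Among the regulators, INSIG1, which retains the SCAP-SREBP complex in the endoplasmic reticulum and is itself an SREBP target, read 5308, 2319.8 and 6685 with the CKS1B shRNA (A, B, C), against 2649, 2532 and 2927 with the scrambled shRNA (A, B, C). Arrays A and C lay above every scrambled array and array B below them, so the groups overlapped. The mean was 4771 ± 2231 with the CKS1B shRNA and 2703 ± 203 with the scrambled shRNA, a log2 difference of 0.69 (SE 0.47, limma adjusted p = 0.933). Without array B the difference was 1.14 (SE 0.21, limma adjusted p = 0.263), 2.20-fold, and 222% of the scrambled mean. After quantile normalization of the 6 arrays the 3 values with the CKS1B shRNA lay above the scrambled ones, with a difference of 0.81 (limma adjusted p = 0.800). In that setting INSIG1 was the 1 gene of 24 not overlapping on the higher side, where 5.08% of all genes were, and the 6 genes on the lower side were the same, where 8.58% of all genes were. The other 2 probe sets of INSIG1 read 699.5 and 540.5 on array B, far below their scrambled means of 3500.4 and 2403, and gave log2 differences of -0.45 and -0.25 over 6 arrays. Without array B they gave 0.45, with overlapping groups, and 0.68, with both remaining CKS1B shRNA arrays above the scrambled ones.

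The probe sets of the SREBP genes varied in sign. SREBF2, the SREBP that mainly drives sterol synthesis, read 1746, 1845 and 1209.9 with the CKS1B shRNA (A, B, C), against 1809.8, 1758 and 1669 with the scrambled shRNA (A, B, C). Array C lay below the scrambled range and array B just above it, and the log2 difference was -0.15 (SE 0.32). A second SREBF2 probe set read lower on all 3 CKS1B shRNA arrays, at 1268, 423 and 894.5 against 1544, 1613 and 1406, a difference of -0.94. The third gave 0.23. SREBF1, whose product mainly drives fatty acid synthesis, read 487, 1089 and 729 with the CKS1B shRNA against 569.7, 524 and 689, with array B highest and the groups overlapping (log2 difference 0.30, SE 0.37, and 0.01 without array B). SCAP, the escort that senses sterol, read 1299.8, 714 and 1276 against 1020.0, 1063 and 904. Its arrays A and C were above all scrambled arrays and array B below, which gave 0.09 over 6 arrays and 0.37 without array B. STARD4, which carries sterol between membranes, read 486, 579 and 557 with the CKS1B shRNA (A, B, C), against 590.1, 740.4 and 814.6 on the scrambled arrays. All 3 values lay below the scrambled range, array B only just, and the difference was -0.38 (SE 0.29) over 6 arrays and -0.43 without array B.

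SREBPs bind near the start of their targets together with NF-Y, a factor that binds the pentamer CCAAT. The upstream sequences of 4 genes are shown for this reason: INSIG1, with the largest positive difference, and NSDHL, STARD4 and SCD, which did not overlap on the lower side. Each is the 250 bases before the start of the gene in RefSeq (GRCh38.p14), 5′ to 3′ on the strand of the gene. Capitals mark CCAAT on either strand (ATTGG where it lies on the other) and the palindromic E-box CACGTG. The sterol regulatory element, a site that SREBPs bind, was not searched. Unmarked letters thus do not show that an SREBP site is absent.
INSIG1: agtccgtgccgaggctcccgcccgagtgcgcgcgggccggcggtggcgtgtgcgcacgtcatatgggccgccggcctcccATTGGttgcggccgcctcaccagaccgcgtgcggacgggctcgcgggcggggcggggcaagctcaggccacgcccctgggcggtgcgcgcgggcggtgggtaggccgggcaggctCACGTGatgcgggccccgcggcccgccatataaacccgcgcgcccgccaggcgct
NSDHL: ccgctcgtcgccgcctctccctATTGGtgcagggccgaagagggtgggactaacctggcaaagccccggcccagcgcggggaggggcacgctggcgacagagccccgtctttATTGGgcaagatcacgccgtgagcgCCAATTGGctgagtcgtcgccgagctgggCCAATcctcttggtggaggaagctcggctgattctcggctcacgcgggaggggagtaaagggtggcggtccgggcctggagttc
STARD4: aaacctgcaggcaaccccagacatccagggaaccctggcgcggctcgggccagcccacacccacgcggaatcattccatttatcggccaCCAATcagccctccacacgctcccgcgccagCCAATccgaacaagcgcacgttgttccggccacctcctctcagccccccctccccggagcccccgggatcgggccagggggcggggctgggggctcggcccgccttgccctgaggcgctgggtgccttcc
SCD: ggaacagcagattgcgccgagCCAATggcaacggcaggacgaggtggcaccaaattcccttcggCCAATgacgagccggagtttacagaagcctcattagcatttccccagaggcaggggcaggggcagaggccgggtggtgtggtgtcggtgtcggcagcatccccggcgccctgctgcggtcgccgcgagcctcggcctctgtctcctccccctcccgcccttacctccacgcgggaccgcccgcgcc

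The windows lie at chr7:155297628-155297877 (INSIG1, plus strand), chrX:152830813-152831062 (NSDHL, plus strand), chr5:111512536-111512785 (STARD4, minus strand) and chr10:100346983-100347232 (SCD, plus strand). INSIG1 held an inverted CCAAT at 170 to 166 bases before the start and the E-box at 55 to 50. NSDHL held 5 matches to CCAAT, of which those at 113 to 109 and 110 to 106 overlap on opposite strands. STARD4 and SCD held CCAAT at 161 to 157 and 130 to 126, and at 229 to 225 and 186 to 182. Of the 24 genes of the list with a window in the RefSeq table (all but FDFT1, ACAT2, FASN and SQLE), 18 (75%) held CCAAT in a listed window, as did 37.0% of 27305 genes. INSIG1, SC5D and SCAP held the E-box (12.5%), as did 7.73% of all genes. A match describes letters and not a bound site, and genes with differences of either sign held CCAAT.

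The mevalonate steps were represented by 6 enzymes. ACAT2, which joins acetyl-CoA units, read 2702, 1044 and 2195 with the CKS1B shRNA (A, B, C), against 3107, 3699 and 3715 with the scrambled shRNA (A, B, C). Every CKS1B shRNA array lay below the scrambled range, with array B the lowest. The mean was 1980.2 ± 849.7 with the CKS1B shRNA and 3507 ± 346 with the scrambled shRNA, a log2 difference of -0.92 (SE 0.43, limma adjusted p = 0.933) that was -0.52 (SE 0.22, limma adjusted p = 0.504) without array B. HMGCS1, which makes HMG-CoA, read 1047, 449 and 1791 against 1352, 1275 and 2038, so that array C lay within the scrambled range and arrays A and B below it. Its difference was -0.67 (SE 0.52) over 6 arrays and -0.15 without array B. Its second probe set gave -0.91 and -0.69, with array C rather than array B lowest, at 138 against a scrambled mean of 578. The other 4 enzymes of this stretch, the kinase MVK, the decarboxylase MVD, the isomerase IDI1 and the farnesyl diphosphate synthase FDPS, had log2 differences of -0.27, 0.16, -0.22 and 0.00, and their groups overlapped. IDI1 varied by 4.10% (coefficient of variation) over the scrambled arrays but read 2046, 1375 and 788 with the CKS1B shRNA (A, B, C), above, below and below the scrambled values of 1576, 1453 and 1532. FDPS read 3973, 2583 and 5512 with the CKS1B shRNA against 3498, 3498 and 4669.

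Between squalene and cholesterol, 8 enzymes were measured. NSDHL, which helps remove the methyl groups at carbon 4 of the sterol, read 445, 130.3 and 312 with the CKS1B shRNA (A, B, C), against 534.5, 547 and 628 with the scrambled shRNA (A, B, C). The groups did not overlap, and array A was the nearest to the scrambled range. The mean was 296 ± 158 with the CKS1B shRNA and 569.6 ± 50.6 with the scrambled shRNA, a log2 difference of -1.06 (SE 0.46, limma adjusted p = 0.933) that was -0.59 (SE 0.31) without array B. The second NSDHL probe set went the other way without overlap, at 474, 547 and 424 with the CKS1B shRNA against 341, 312 and 189, a difference of 0.78. LSS, which closes squalene epoxide into lanosterol, read 1241, 584 and 1323 against 1493, 1484 and 1400.3. All 3 CKS1B shRNA values lay below scrambled values that varied by only 3.49%, and the difference was -0.56 (SE 0.39), or -0.18 (SE 0.22) without array B. Another LSS probe set gave 0.43 with overlapping groups.

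MSMO1, the oxidase that starts removal of the methyl groups at carbon 4, read 2892, 688 and 1846 with the CKS1B shRNA (A, B, C), against 2559, 2921 and 2716 with the scrambled shRNA (A, B, C). Array A lay within the scrambled range and arrays B and C below it, for a log2 difference of -0.81 (SE 0.53) over 6 arrays and -0.24 without array B. EBP, an isomerase of the sterol ring, read 3295, 734 and 2496 against 3283, 3063 and 2128. Array B lay far below the scrambled range and array A just above it, and the difference of -0.60 (SE 0.58) was 0.05 without it. SQLE, the epoxidase that commits squalene to sterols, read 7144, 12223 and 3213 against 5569.7, 6269 and 5669, with array B the highest and array C the lowest. The second SQLE probe set had the reverse order, 2962, 284 and 6400.3 against 2295, 1775 and 1453, and the third read lower on all 3 CKS1B shRNA arrays, at 723.5, 346 and 648 against 978, 1039 and 1169. SQLE had no single direction, with log2 differences of 0.17, -0.03 and -0.94 over its 3 probe sets above the filter. The remaining enzymes, the reductases TM7SF2 and DHCR7 and the desaturase SC5D, had differences of 0.18, -0.17 and -0.16 with overlapping groups, and of -0.13, 0.01 and -0.04 without array B. The second DHCR7 probe set gave -0.88, and 0.08 without array B.

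**Figure D2:**
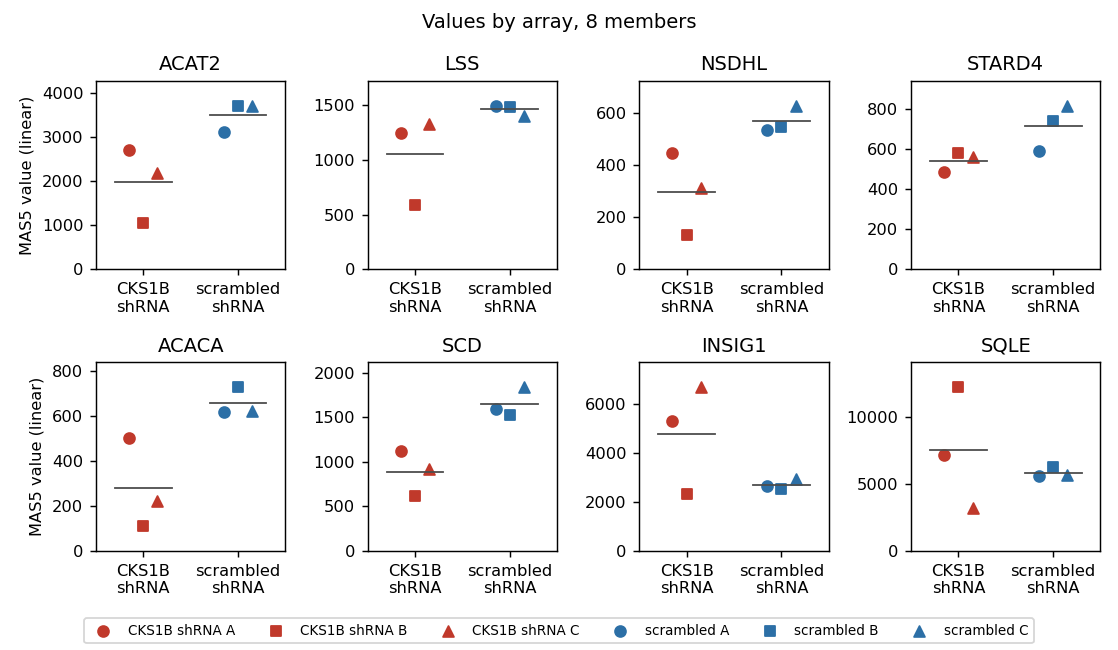
The y axes give MAS5 values on a linear scale from 0, and each panel is the brightest probe set of 1 gene. Red points are the CKS1B shRNA arrays, blue points the scrambled arrays, the shapes mark the letters A, B and C, and lines mark group means. The groups do not overlap in ACAT2, LSS, NSDHL, STARD4, ACACA and SCD, and they do in INSIG1 and SQLE, where array B lies on the other side of the scrambled level from array C.

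In the fatty acid branch 5 of 6 genes had a negative difference through their brightest probe set. ACACA, the acetyl-CoA carboxylase that makes malonyl-CoA and commits carbon to fatty acids, read 502, 112 and 219.9 with the CKS1B shRNA (A, B, C), against 618, 727 and 619.5 with the scrambled shRNA (A, B, C). No CKS1B shRNA array reached the scrambled range. The mean was 278 ± 201 with the CKS1B shRNA and 655 ± 62.5 with the scrambled shRNA, a log2 difference of -1.42 (SE 0.52, limma adjusted p = 0.933), or 2.67-fold, which was -0.94 (SE 0.37, limma adjusted p = 0.504) without array B. The second ACACA probe set read 464, 51.3 and 543 against 515, 524 and 607.5, so that array C lay within the scrambled range there, and its difference of -1.10 became -0.12 without array B. SCD, the desaturase that makes oleate from stearate, read 1121, 621 and 917 against 1592, 1527 and 1839. The groups were apart on every array, and the mean of 887 ± 251 with the CKS1B shRNA was 53.6% of the scrambled mean of 1653 ± 165. The log2 difference was -0.92 (SE 0.33, limma adjusted p = 0.933) over 6 arrays and -0.69 (SE 0.23, limma adjusted p = 0.478) without array B. The other SCD probe sets above the filter gave -0.11 and -1.05 with overlapping groups, or -0.02 and -1.34 without array B. In both of them scrambled array C, at 353 and 100.1, read far below the other scrambled arrays.

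ELOVL6, which elongates palmitate to stearate, read 1706, 822 and 1913 with the CKS1B shRNA (A, B, C), against 2812, 1839 and 2259 with the scrambled shRNA (A, B, C). Array C lay within the scrambled range, and the log2 difference was -0.70 (SE 0.42) over 6 arrays and -0.33 without array B. The other ELOVL6 probe sets above the filter gave -0.20 and 0.54 over 6 arrays, with overlapping groups, so the sign was mixed. Without array B they gave -0.55 and -0.07, also with overlapping groups. The mean over the ELOVL6 probe sets gave -0.12 over 6 arrays. FASN, the fatty acid synthase, read 3323, 1005.5 and 2148 against 3231, 2454 and 3299.6. Array A lay just above the scrambled arrays and arrays B and C below them, which gave -0.62 (SE 0.48) over 6 arrays and -0.15 without array B. FADS2, the delta-6 desaturase, gave -0.39 with overlapping groups. ACLY, which cleaves citrate to supply acetyl-CoA to both branches, had a difference of 0.39 through its brightest probe set, the 1 positive value of this branch, and 0.07 without array B. Array B read 15111 against 6768 and 8719 on arrays A and C of the CKS1B shRNA and a scrambled mean of 7376. Its other 2 probe sets read 307 and 572 on array B, against scrambled means of 2842 and 1546, and gave differences of -1.38 and -0.54, or -0.53 and -0.11 without array B.

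The branches are described on each array in turn. The 14 sterol enzymes had a median deviation from the scrambled mean of 0.07, -0.89 and -0.18 with the CKS1B shRNA (A, B, C), while each scrambled array against the mean of the other 2 gave -0.13, 0.03 and 0.07. Array A therefore lay within the scrambled range, with 5 of 14 enzymes below the scrambled mean, and array B far from it, with 12 of 14 below. The scrambled arrays had 9, 6 and 6 of 14 below. On array C 11 of 14 were below, where 51.1% of all genes tested were. Through their brightest probe sets, these included all 8 enzymes between squalene and cholesterol and 3 of the 6 mevalonate enzymes. Other probe sets above the filter read above their scrambled mean on array C for EBP, NSDHL (424 against 281) and SC5D (218 against 137). Those of LSS and DHCR7 read below it. The second SQLE probe set read above it (6400 against 1841) and the third below. The 6 fatty acid genes had medians of -0.24, -1.42 and -0.64 with the CKS1B shRNA (A, B, C), against 0.05, -0.09 and -0.06 on the scrambled arrays. All 3 medians lay below the scrambled ones. Through the brightest probe sets 4, 5 and 5 of the 6 genes lay below the scrambled mean, where 53.6%, 49.6% and 51.1% of all genes tested did. The scrambled arrays had 3, 4 and 4 of 6 below. On array A other probe sets above the filter read above their scrambled mean for ACLY, SCD (1346 against 1088) and ELOVL6 (306 against 231). For ACLY these read 3092 against 2842 and 1565 against 1546. The third SCD, second ELOVL6 and second ACACA probe sets read below it there. On array B the other ELOVL6 probe sets read above it and the rest below, and on array C all read below. The 5 regulators and carrier had medians of 0.00, -0.22 and 0.30, against -0.04, 0.02 and 0.18. Over all genes tested the medians were -0.04, 0.01 and -0.02 with the CKS1B shRNA (A, B, C). On array B this median is the balance of opposite shifts in bright and dim genes, and it is no baseline for genes of 1 level. Whether the branches differ from each other was not tested.

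**Figure D3:**
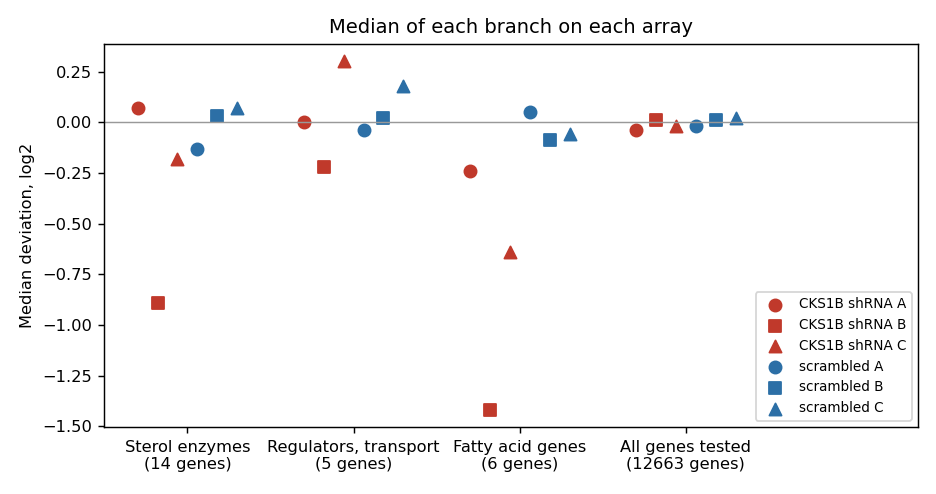
The y axis gives the median deviation from the scrambled mean on the log2(value + 16) scale over the genes of a branch, or over all genes tested, with a point for each array (red, CKS1B shRNA; blue, scrambled shRNA). The 3 red points of the fatty acid genes lie at -0.24, -1.42 and -0.64, all below the blue points, and those of the sterol enzymes lie at 0.07, -0.89 and -0.18.

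The level of a gene goes with its value on CKS1B shRNA array B. Among all genes tested, the 25% with the highest scrambled level had a median deviation of -1.37 on array B, and the 25% with the lowest 1.11. On arrays A and C of the CKS1B shRNA the medians were 0.12 and 0.04 for the highest and -0.21 and 0.04 for the lowest. Scrambled array C, against the other scrambled arrays, had -0.19 for the highest and 0.61 for the lowest, a smaller shift in the direction of array B. Scrambled arrays A and B had 0.12 and 0.07 for the highest and -0.30 and -0.21 for the lowest. Of the 24 genes tested here 9 lay among the highest 25%, 9 and 6 in the next groups down and 0 in the lowest. The part of level and of RNA quality, on array B or any other array, in these differences was not tested. Quantile normalization, which gives each array the same distribution, gave median deviations on array B of -1.38 for the sterol enzymes, where the deposited values gave -0.89, and -1.39 for the fatty acid genes, where they gave -1.42. The regulators and carrier had 0.56 there instead of -0.22, and all genes tested -0.31. Without array B the median log2 difference was -0.14 for the sterol enzymes and -0.36 for the fatty acid genes, against -0.04 over all genes, and 0.01 for the regulators and carrier. The same 6 genes as with 6 arrays did not overlap on the lower side, which leaving out an array cannot undo, and they are 25% of the 24 against 14.4% of all genes. INSIG1 and SCAP did not overlap on the higher side (8.33%, against 13.6% of all genes). No gene of the list passed (0 of 24), where 5 of all genes did (0.0395%), and 4 of 24 had an unadjusted p under 0.05, against 9.49% of all genes.

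**Figure D4:**
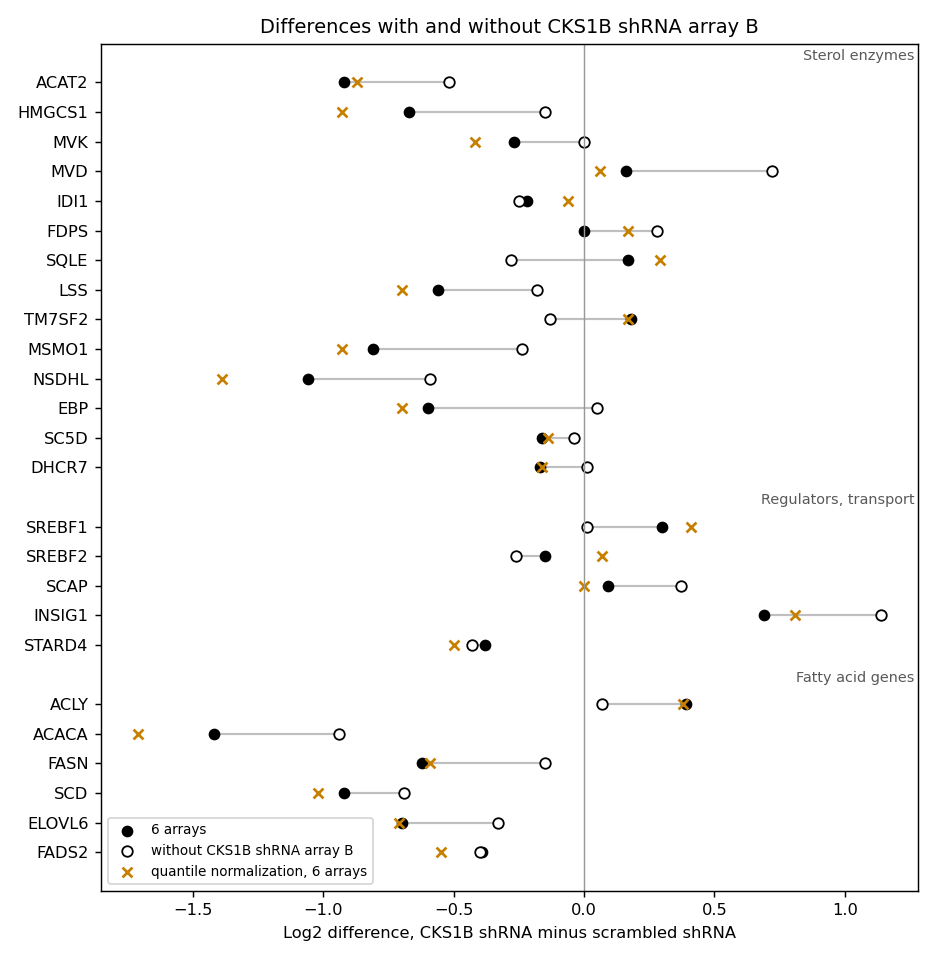
The x axis gives the log2 difference, CKS1B shRNA minus scrambled shRNA, for each gene with all 6 arrays (filled), without CKS1B shRNA array B (open) and with all 6 arrays after quantile normalization (crosses). Leaving out array B brings ACACA to -0.94, SCD to -0.69, NSDHL to -0.59 and ACAT2 to -0.52, moves MSMO1, EBP and FASN to -0.24, 0.05 and -0.15, and moves INSIG1 to 1.14.

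Different probe sets of a gene often disagreed. Of the 14 genes with 2 or more probe sets above the filter, 5 had the same sign in all of them over 6 arrays and 9 did not, and without array B 7 did and 7 did not. HMGCS1, ACACA and SCD were negative in each such probe set with and without array B, and INSIG1 was positive in each without it. Without array B the second probe sets of ACACA and SCD were close to 0, at -0.12 and -0.02, with overlapping groups. Of the 6 genes whose groups did not overlap, ACAT2 and STARD4 have no other probe set, ACACA and SCD had others that were negative but overlapped, LSS had 1 above the filter that was positive but overlapped, and NSDHL had 1 that was higher on every CKS1B shRNA array.

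**Figure D5:**
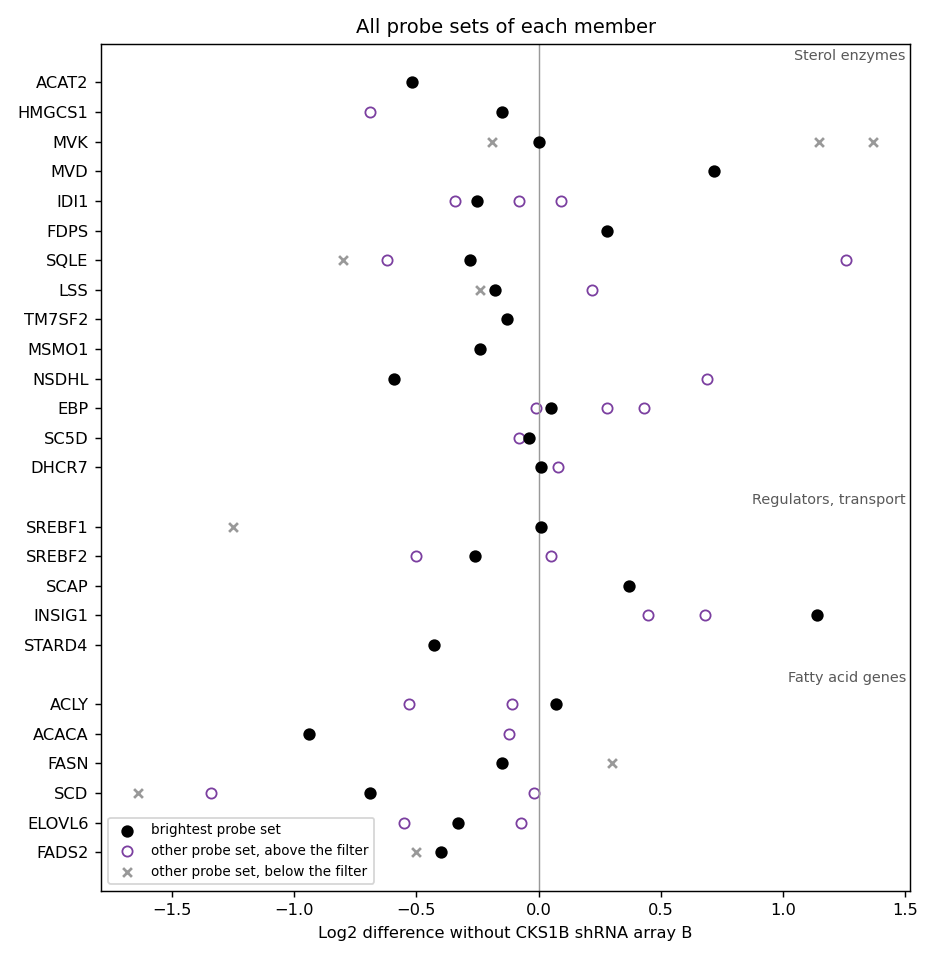
The x axis gives the log2 difference without CKS1B shRNA array B for every probe set of each gene: the brightest (filled), others above the filter on low values (open) and others below it (crosses). The 3 INSIG1 points lie at 0.45, 0.68 and 1.14, while the NSDHL points lie on both sides of 0, at -0.59 and 0.69.

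Genes around the pathway were taken from a further list of 51 genes, of which 42 were tested. None of them (0 of 42) passed in limma, 27 had a negative and 15 a positive difference, and the groups did not overlap in 5 on the lower and 2 on the higher side, where 6.41% and 4.94% of all genes did not. Without array B the tally turned to 16 negative and 26 positive, with 5 not overlapping on the lower and 7 on the higher side, where 14.4% and 13.6% of all genes did not. Of the other sterol enzymes 3 of 5 were higher (median log2 difference 0.01). Of the genes for processing and turnover of the SREBP system 3 of 6 were higher (median -0.29). ERLIN1, an endoplasmic reticulum protein that takes part in the turnover of INSIG1, read 919, 251 and 917 with the CKS1B shRNA (A, B, C), against 1473, 1467 and 1716 with the scrambled shRNA (A, B, C), a difference of -1.34 that was -0.74 without array B. INSIG2, the second INSIG protein, read 393, 397 and 256 against 474.5, 429 and 702, a difference of -0.59. On arrays A and C it lay on the opposite side of its scrambled level from the brightest INSIG1 probe set. On array C the second INSIG1 probe set lay below its scrambled mean (3119 against 3500.4) and the third above (2860 against 2403). Among 7 genes of sterol uptake, esterification and efflux, NPC2, which hands lysosomal cholesterol to its membrane exporter, read 2822, 2104 and 2462 against 1616, 1608 and 1648 (difference 0.59). SOAT1, which stores cholesterol as esters, read 1429, 1442 and 1097 against 2014, 2079 and 1688 (difference -0.54). Of the 16 genes of fatty acid supply and elongation 13 had a negative difference with 6 arrays (median -0.20) and 6 without array B (median 0.04). Of 8 genes of fatty acid oxidation, the reverse pathway, 5 were negative with 6 arrays (median -0.03) and 1 without array B (median 0.18). ERLIN1, INSIG2, NPC2 and SOAT1 were named after their values were seen, as 4 of the 7 genes whose groups did not overlap. The others were HACD2 and ACSL5, lower at -0.75 and -0.87, and MBTPS2, higher at 0.20.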

How the data were processed

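Total RNA was measured on 6 arrays, grouped by the labels. The deposited intensity values are MAS5 output of the authors, according to the submitters' processing notes, with version and settings not given in the sources used here. Every array had a 2% trimmed mean of 500.0 to 500.1. Of 54613 probe sets other than 62 controls, 41091 had 1 gene in the platform annotation, and 41037 of these matched RefSeq (GRCh38.p14) by Entrez identifier.

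Values were turned into log2(value + 16). The brightest probe set of each gene over 6 arrays was kept in every setting except those that change that choice, and genes below 7.34 (a value of about 146) were left out of the test, which left 12663 of 19775. The test was limma (version 3.58.1, R 4.3.3), with lmFit, eBayes with trend and no covariates. The fit was tested on simulated data. Alternatives changed the pseudocount, filter, normalization, probe set choice, array weights, trend, letter block and arrays used. All 28 genes of the list are named, and those in full are the non-overlapping ones and the largest differences, up to 8 sterol and regulator genes and 4 fatty acid genes. SREBF1, SREBF2, SCAP, SQLE, IDI1, FDPS and ACLY were added. The genes and lists were chosen with earlier results of these data known. Figures were drawn with matplotlib 3.10.9.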

Additional observations from a re-analysis of the deposited data

How the results depend on the processing

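The genes of the list past the threshold stayed at 0 under every alternative except the letter as a replicate block without CKS1B shRNA array B, which left 1, INSIG1 (log2 difference 1.09, limma adjusted p = 0.0121, against 0.154 to 1.0 under its other settings). The same fit called 179 genes over all, against 0 with 6 arrays, and rests on few residual degrees of freedom. Same-letter arrays also have consecutive numbers in their titles, and nothing states whether they were handled as pairs. They correlated at 0.402, -0.081 and -0.080 (A, B, C) in their deviations from the group means, where arrays of different letters gave -0.374 to 0.263. Those deviations are taken from means that include CKS1B shRNA array B, so they cannot decide whether the arrays are paired. With 6 arrays the replicate block gave 0 calls. Over all genes, array weights gave 4, leaving out both arrays of letter B gave 1, quantile normalization without CKS1B shRNA array B gave 2, and leaving out each array in turn gave 0 to 5, the 5 without CKS1B shRNA array B. The sterol median (-0.24) ran from -0.51, without CKS1B shRNA array A, to -0.10, and the fatty acid median (-0.66) from -0.93, without CKS1B shRNA array A, to -0.29, all below 0. Centring each array on its median moved the median over all genes to -0.31. It left 22 of 25 genes of the list negative, where 71.7% of all genes tested were. After this centring only 2 of the 24 tested genes did not overlap on the lower side, instead of 6 with the deposited values. Over all genes it was 487 of 12663. The mean over probe sets moved INSIG1 to 0.00 and changed the sign of 8 of 25 genes. The cause was not tested.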
